A study of Mus musculus with 4 samples.

Results

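CCT, the chaperonin of the cytosol also called TRiC, was followed through its 8 subunit genes, *Tcp1* (the alpha subunit), *Cct2* (beta), *Cct3* (gamma), *Cct4* (delta), *Cct5* (epsilon), *Cct6a* (zeta), *Cct7* (eta) and *Cct8* (theta). The members were all non-control probes whose gene name on the array was one of these symbols, which gave 8 probes for 8 genes, 1 probe and 1 spot each, among 39429 probes with 30175 gene names. RNA came from NIH-3T3:Per2-Luc, an established line of mouse fibroblasts that carries a luciferase gene under the *Per2* promoter. On 3 arrays the cells had received a cOS-pulse (critical oxidative stress) of 5 mM H2O2, lasting 10 min, and were collected 4 h, 20 h or 32 h later, and on 1 array they were controls at 0 mM H2O2 in fresh medium, labelled 4 h. All 4 arrays were one-color (Cy3) and lay on 1 slide, so the condition, the culture and the position on the slide cannot be told apart. Each condition had 1 array. No test was therefore possible, no p-value is given, and precision is limited by how few arrays there were. The control was the only untreated array analysed here, and the comparisons at 4 h, 20 h and 32 h share it. No untreated array at 20 h or 32 h was analysed here, so that in the ratios of these times the pulse and the time in culture cannot be told apart.

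The CCT complex is built of back-to-back rings, each holding every one of the different but related subunits, and it closes over unfolded proteins and opens again with cycles of ATP binding and hydrolysis. Its best-known clients are actin and tubulin, which need it to reach the native state, and several proteins with WD40 repeats. Prefoldin delivers new chains to it, and proteins of the phosducin-like family bind it as cofactors. It is an abundant, essential complex of the cytosol.

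The probes are shown because each subunit was measured by a single oligonucleotide of 60 bases, so that every value below is that of 1 sequence. They are written 5′ to 3′ as on the array, in lower case. The 7 that follow have at least 1 reading frame without a stop codon through all 60 bases.
Tcp1: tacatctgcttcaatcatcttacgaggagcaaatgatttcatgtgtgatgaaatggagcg
Cct2: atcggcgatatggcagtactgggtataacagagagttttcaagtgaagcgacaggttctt
Cct3: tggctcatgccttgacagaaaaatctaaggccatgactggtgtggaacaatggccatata
Cct4: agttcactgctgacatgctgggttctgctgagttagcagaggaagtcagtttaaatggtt
Cct6a: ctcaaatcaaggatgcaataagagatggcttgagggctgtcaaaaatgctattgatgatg
Cct7: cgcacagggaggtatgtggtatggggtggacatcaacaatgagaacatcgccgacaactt
Cct8: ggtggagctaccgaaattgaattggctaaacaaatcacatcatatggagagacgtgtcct
In the array annotation (mm9) the probe of *Tcp1* lies at chr17:13116096-13116155 on the + strand, that of *Cct2* at chr10:116490137-116490196 on the - strand, that of *Cct3* at chr3:88124479-88124538 (+) and that of *Cct4* at chr11:22901396-22901455 (+). The probe of *Cct5*, which has no open frame, lies at chr15:31520643-31520702 (-), and that of *Cct6a* at chr5:130300316-130300375 (+). The probe of *Cct7* spans 327 bases at chr6:85417773-85418099 (+) and that of *Cct8* 149 bases at chr16:87485981-87486129 (-), both longer than the oligonucleotide itself. No annotation of exons or UTRs on mm9 was used here. GC content ran from 38.3% for *Cct5* to 51.7% for *Cct7*.

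The scanner software marked all 8 probes as well above background on all 4 arrays, and none was saturated. They were bright. Their percentile among all probes lay between 88.5 and 97.3 in the control and between 85.2 and 97.2 at 32 h. Levels are given on the log2 scale after subtraction of each array's 75th percentile, so that a level of 0 is the 75th percentile. Levels of different probes are not compared, since probes differ in how well they bind. A level is thus relative to the other probes of its array, and a loss shared by all probes does not show in it. In a bulk sample a lower level can come from a smaller share of cells holding the RNA or from less of it in each cell. These cannot be told apart.

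*Tcp1*, the founding member of the family, had a level of 3.82 in the control, 4.46 at 4 h, 3.59 at 20 h and 3.46 at 32 h. *Cct2* had levels of 5.44, 6.17, 5.27 and 5.25 in the same order. *Cct3* had levels of 2.77, 3.18, 2.28 and 2.32. These 3 subunits were thus highest at 4 h and below the control at both later times. *Cct4* had levels of 3.19, 3.69, 2.93 and 2.79. *Cct5* had levels of 5.26, 5.97, 5.12 and 5.07. *Cct6a* had levels of 2.33, 3.02, 1.91 and 1.73. Here too the 4 h array was the highest and the 32 h array the lowest. *Cct7* had levels of 3.67, 4.06, 3.28 and 3.30, and *Cct8* had levels of 3.62, 4.40, 3.49 and 3.43. With this scaling the control stood second on every probe, and the 20 h and 32 h arrays were the neighbours that lay closest together.

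**Figure D1:**
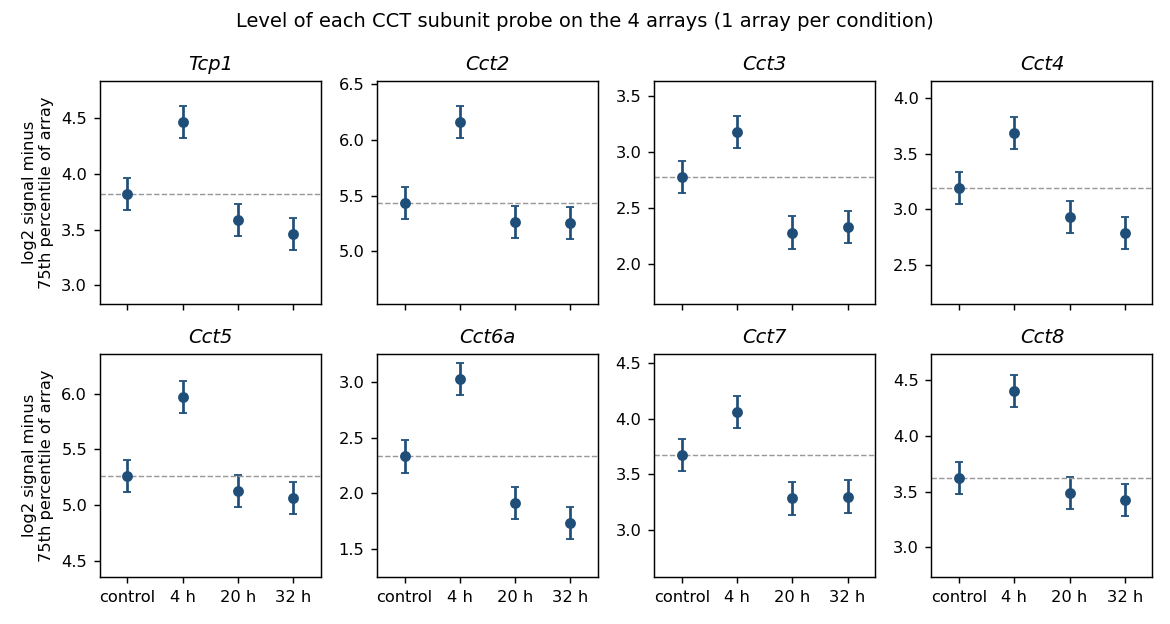
Level of each CCT subunit probe (log2 signal minus the 75th percentile of the array, y axis) on the control, 4 h, 20 h and 32 h arrays (x axis). Points are single arrays, bars are the spot error of the scanner software, and the dashed line is the control. All 8 panels peak at 4 h, and each y axis covers the same range in log2 units. In *Tcp1* the points run from 3.46 at 32 h to 4.46 at 4 h.

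All 8 probes were highest at 4 h, where 51.3% of the 19697 probes well above background on all 4 arrays were so. In 6 of the 8 the full order was 4 h, control, 20 h, 32 h, an order held by 13.8% of those probes. The exceptions were *Cct3* and *Cct7*, which were lowest at 20 h, but their levels at 20 h and 32 h differed by only 0.046 and 0.017, far less than the spot error of 0.20. The order and its exceptions depended on the scaling. Without scaling 5 members were above the control at 20 h, and with the spike-in controls 3 were. With the array median all 8 were below the control at 20 h and higher at 20 h than at 32 h.

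At 4 h the subunits stood above the control together. The log2 ratio was highest for *Cct8*, with 0.78 ± 0.20 (spot errors of both arrays combined, as the scanner software estimates them), or 1.72-fold. *Cct2* had 0.73, *Cct5* 0.71, *Cct6a* 0.69 and *Tcp1* 0.64. Each of these 5 was at least 1.5-fold higher. *Cct4* had 0.49, *Cct3* 0.40 and *Cct7* 0.39, each with the same spot error of 0.20. No subunit reached 2-fold. Of all 20392 probes measured on both arrays, 21.6% were at least 1.5-fold higher at 4 h and 8.63% at least 2-fold higher, against 5 and 0 of the 8 members. All 8 ratios were above 0, as were 60.2% of the measured probes. A ratio above the control by more than its spot error was seen in 8 of 8 members and in 46.6% of all measured probes, and in 5 to 8 members under the other scalings.

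The median over the 8 members was 0.67 at 4 h, and the median over all measured probes 0.17, a difference of 0.50. The median of the members lay at a percentile of 82.0 among the measured probes. Bright probes lay above the median of all probes at 4 h, except with quantile normalization. The bright probes were the 3943 measured ones in the brightest 10% by mean level over the 4 arrays, the 4 h array included. They had a median of 0.34, and 76.1% of them were above the control. With the array median and the spike-in controls this median was -0.023 and -0.060, beside -0.19 and -0.23 for all measured probes. Without scaling it was 0.058, beside -0.11, and with the 75th percentile of commonly detected probes 0.21, beside 0.047. With quantile normalization it was -0.014, beside -0.015. The members lay 0.33 above the median of the bright probes, and 0.34 with quantile normalization. The part of brightness in the ratios of the members was not tested further.

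The height of the ratio at 4 h depended on how the arrays were scaled to each other. Scaling by the array median, by quantile normalization, by spike-in controls or leaving them unscaled gave a median of the members of 0.31, 0.32, 0.27 and 0.39, and with each of these no member was 1.5-fold higher. The same scalings moved the median of all measured probes to -0.19, -0.015, -0.23 and -0.11. With a 75th percentile over commonly detected probes only, the median of the members was 0.54 and 2 members were 1.5-fold higher. All 8 members stayed above the control under these scalings, except *Cct7* with the spike-in controls (-0.011). The distance between the members and all measured probes was 0.34 with quantile normalization and 0.50 with the other scalings. Those others move every probe of an array alike and so could not change this distance.

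**Figure D2:**
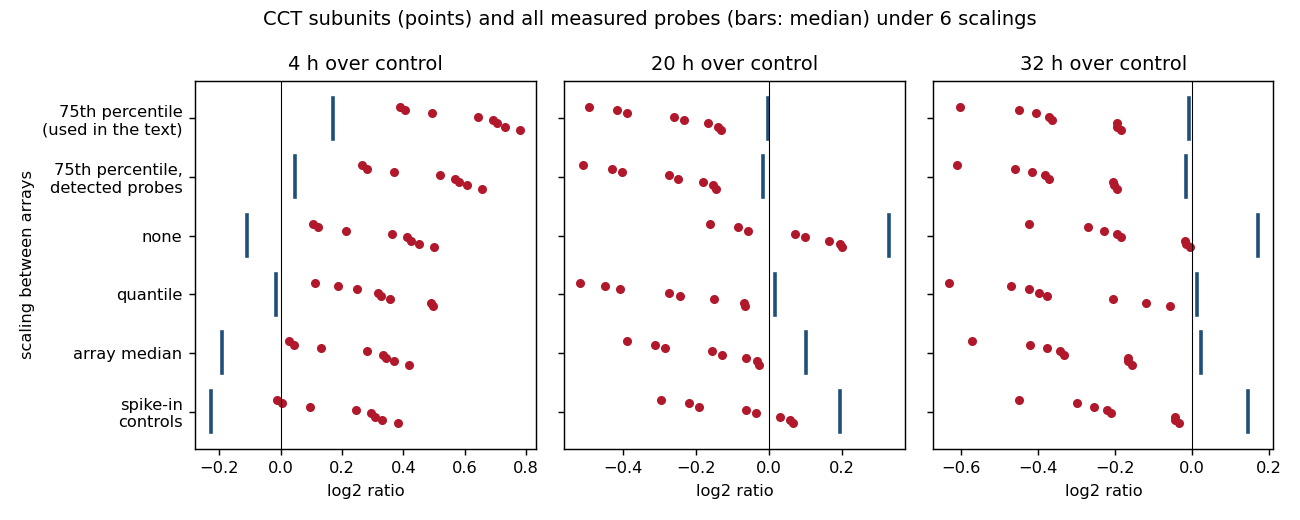
Log2 ratio of the 8 CCT subunit probes (red points) and median of all probes measured on both arrays (blue bars) under 6 scalings between arrays (rows), for 4 h, 20 h and 32 h over the control (panels, each with its own x axis). At 4 h the points lie to the right of the bar in every row, and at 20 h and 32 h to the left of it. With 75th percentile scaling at 4 h the points run from 0.39 to 0.78 and the bar lies at 0.17.

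The ratios of the subunits at 4 h spanned 0.39 from *Cct7* to *Cct8* under 5 scalings, and 0.38 from *Cct7* to *Cct6a* with quantile normalization. *Cct3*, *Cct4* and *Cct7* were the 3 lowest under all 6. Of the 28 pairs of subunits, 8 differed by more than the spot error of the pair (0.29). Each of these 8 pairs held *Cct3* or *Cct7*. At 20 h, 3 pairs exceeded it, each holding *Cct3*. At 4 h the difference of *Cct8* and *Cct7* was 0.39, that of *Cct8* and *Cct3* 0.38 and that of *Cct2* and *Cct7* 0.34. The spot error of the software is set at about 10.0% of the signal. Probes printed 10 times on the array gave a smaller measure of spot noise, with a median SD of single-spot log2 ratios of 0.038 at 4 h over the control for the 47 such probes at least as bright as the dimmest member. Neither error covers differences between cultures or labelings, so that the order of the subunits describes these arrays only.

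At 20 h the subunits stood slightly below the control, an array labelled 4 h, so that time in culture differed as well as the pulse. *Cct3* had a log2 ratio of -0.50, *Cct6a* -0.42, *Cct7* -0.39, *Cct4* -0.26 and *Tcp1* -0.23. These 5 lay below the control by more than the spot error of 0.20, as did 22.9% of the 20448 measured probes. *Cct2* had -0.17, *Cct5* -0.14 and *Cct8* -0.13, which are within it. Under the other scalings 0 to 5 members were below by more than the spot error. The median of the members was -0.25 against -0.0034 for all measured probes. A ratio below 0 was seen in 8 of 8 members and in 50.5% of all measured probes, and no member was 1.5-fold lower, as 5.64% of the measured probes were. The direction at 20 h was not independent of the scaling. Without scaling the median of the members turned to 0.084 and 5 members were above the control, and with the spike-in controls it was -0.051 and 3 members were above, while the median of all measured probes moved to 0.33 and 0.19.

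At 32 h all 8 members were below the control, again with another time in culture, under all 6 scalings, as were 50.9% of the measured probes with the 75th percentile scaling. *Cct6a* was the lowest with -0.60 ± 0.20, or 1.52-fold lower, and the only member at least 1.5-fold lower, as were 5.24% of the 19969 measured probes. With the array median, with the spike-in controls and without scaling *Cct6a* had -0.57, -0.45 and -0.42, and no member was 1.5-fold lower. *Cct3* had -0.45, *Cct4* -0.41, *Cct7* -0.37 and *Tcp1* -0.36. *Cct5* had -0.20, *Cct8* -0.19 and *Cct2* -0.18, each within the spot error. The 5 members beyond it, 3 to 6 under the other scalings, compare with 23.1% of the measured probes. The median of the members was -0.37 and that of all measured probes -0.0062, so that the members lay 0.36 lower. The median of the members stood at a percentile of 12.3 among the measured probes at 32 h, and at 20.3 at 20 h.

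**Figure D3:**
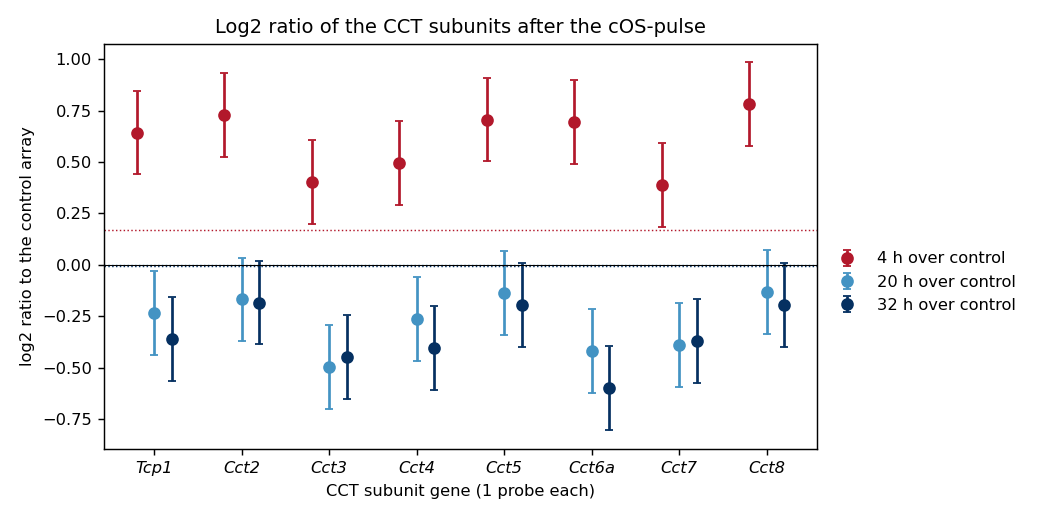
Log2 ratio to the control array (y axis) of each CCT subunit probe (x axis) at 4 h (red), 20 h (light blue) and 32 h (dark blue). Points are single ratios, bars the spot error of both arrays, and dotted lines the median of all measured probes at each time. The 8 red points lie between 0.39 and 0.78, and the blue points between -0.60 and -0.13.

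*Cct2*, *Cct5* and *Cct8* had the 3 highest ratios at 4 h, at 20 h and at 32 h alike, and so were also the 3 nearest to the control at the later times. *Cct6a* was close to them at 4 h (0.69) and lowest of all at 32 h, where its differences from *Cct2*, *Cct5* and *Cct8* (0.42, 0.41 and 0.41) exceeded the spot error of the pair. With quantile normalization *Cct6a* was the highest at 4 h instead, followed by *Cct8*, *Tcp1*, *Cct2* and *Cct5*. These comparisons share the control array, so that a high control signal of a probe lowers its ratio at every time.

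The distance from 4 h to 32 h does not use the control. This comparison was added after the values were seen. All 8 members were at least 1.5-fold higher at 4 h than at 32 h, as were 26.4% of the 20077 measured probes. *Cct6a* had a log2 ratio of 1.29 ± 0.20 and *Tcp1* 1.01 ± 0.20, and both passed 2-fold, as 11% of the measured probes did. *Cct8* had 0.97, *Cct2* 0.91, *Cct5* 0.90, *Cct4* 0.90, *Cct3* 0.85 and *Cct7* 0.76. *Cct6a* differed from each of the other 7 subunits by more than the spot error of the pair, by 0.29 from *Tcp1* up to 0.53 from *Cct7*. The median of the members was 0.91 against 0.16 for all measured probes. It was 0.52 with the array median, 0.67 with quantile normalization, 0.36 with the spike-in controls and 0.45 without scaling, and 2, 5, 1 and 1 members were then 1.5-fold higher.

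Between 20 h and 32 h, the times the study chose to look for circadian changes, the subunits differed little with the 75th percentile scaling. The log2 ratio of 20 h over 32 h ran from -0.046 for *Cct3* to 0.18 for *Cct6a*, with a median of 0.059. None of the 8 exceeded the spot error of 0.20, as 8.45% of the 20247 measured probes did upward and 9.19% downward. No member was 1.5-fold different in either direction, against 0.716% of measured probes higher at 20 h and 1.72% higher at 32 h. Of the members, 6 were above 0, as were 52.5% of the measured probes. These counts depended on the scaling. With the array median, the spike-in controls and no scaling all 8 members were above 0, and 2, 1 and 5 of them exceeded the spot error, with *Cct6a* at 0.26, 0.23 and 0.34. With 1 array per time, a rhythm of small amplitude or with a phase between these hours was not detectable.

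The genes that work with CCT were taken from lists, with the brightest probe of each gene. Prefoldin is the hexamer that hands unfolded actin and tubulin to the chaperonin. Its 6 genes had a median log2 ratio of 0.023 at 4 h. *Pfdn4* had 0.70 and *Pfdn2* 0.49, while *Pfdn6* (listed as *H2-Ke2*) had -0.56, *Pfdn1* -0.48 and *Pfdn5* -0.058. *Vbp1*, another prefoldin subunit, had 0.10 and was below the control under 4 of the 5 other scalings. In contrast with the 8 subunits of CCT, the prefoldin genes thus lay on both sides of the control, and *Pfdn4* and *Pfdn2* stayed above it and *Pfdn6* and *Pfdn1* below it under the 5 other scalings, while the median of the list turned negative under all 5. At 32 h they ran from -0.13 to 0.031, all within the spot error with the 75th percentile scaling, where 5 of the 8 members of CCT were beyond it. That difference between the complexes was not tested.

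Among the phosducin-like cofactors, *Txndc9* had a log2 ratio of 0.55 at 4 h, *Pdcl* 0.22 and *Pdcl3* -0.066, and that of *Pdcl* turned negative under 3 of the 5 other scalings. *Pdcl2*, a gene known from germ cells, stayed at background on all 4 arrays. The tubulin folding cofactors take over tubulin after CCT has released it. Of these, *Arl2* had -0.95, *Tbcd* -0.81, *Tbcb* -0.57 and *Tbcc* -0.19, while *Tbce* had 0.41 and *Tbca* 0.078, which was negative under all 5 other scalings. The first 2 were at least 1.5-fold lower at 4 h, as were 16.5% of all measured probes. The median of the 6 was -0.38, which lay 0.55 below that of all measured probes.

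The actin and tubulin genes, whose products are the main clients, spread widely at 4 h. Of 13 genes measured, 1 was at least 1.5-fold higher and 3 at least 1.5-fold lower, with a median of -0.063, beside 21.6% and 16.5% of all measured probes. Under the 5 other scalings 4 or 5 were at least 1.5-fold lower. *Tubb2a* (a beta tubulin) was the highest with 1.30, and *Tubg1* (gamma tubulin of the centrosome) the lowest with -1.50. Of 10 other clients, 1 was at least 1.5-fold higher and 3 lower, with a median of -0.33, beside the same 21.6% and 16.5%. Under the 5 other scalings 3 to 6 were lower and 0 or 1 higher. *Gnb1*, a beta subunit of heterotrimeric G proteins, had 0.73, and *Cdc20*, the activator of the anaphase-promoting complex, had -1.95. Under all 6 scalings 9 of the 13 actin and tubulin genes and 8 of the 10 other clients were below the control. Most clients thus lay on the side opposite to the subunits at 4 h. Of all measured probes 60.2% were above the control, and 33.6% to 53.2% under the 5 other scalings. The list medians minus that of all measured probes were -0.23 and -0.50, and stayed negative under the 5 other scalings. The difference between clients and subunits was not tested.

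**Figure D4:**
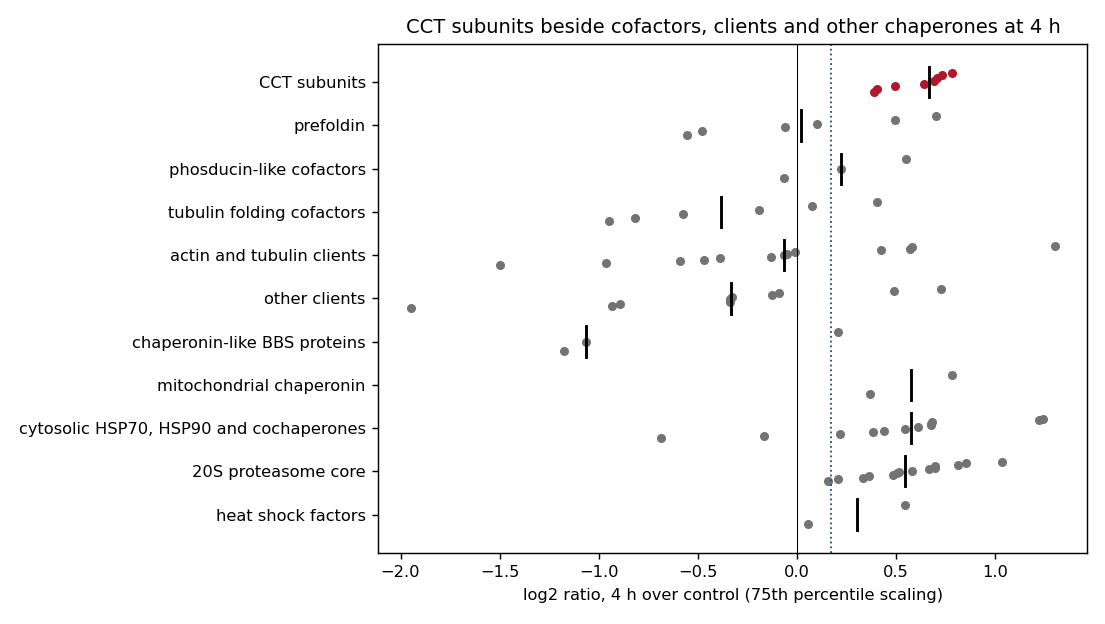
Log2 ratio of 4 h over the control (x axis, 75th percentile scaling) for the CCT subunits (red) and for lists of cofactors, clients and other chaperones (gray), 1 point per gene and a black bar at the median of each list. The dotted line is the median of all measured probes (0.17). The CCT subunits lie between 0.39 and 0.78, and the actin and tubulin clients run from -1.50 to 1.30.

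Among related chaperones, the chaperonin of the mitochondrial matrix had values close to those of CCT. *Hspd1* (Hsp60) had log2 ratios of 0.78 at 4 h, -0.32 at 20 h and -0.35 at 32 h, and its lid *Hspe1* (Hsp10) 0.37, -0.13 and -0.16. *Hspd1* equalled the highest CCT subunit (*Cct8*) at 4 h to 2 decimals and was within the range of the 8 subunits at 20 h and 32 h, and the values of *Hspe1* lay just outside that range, below it at 4 h and above it later. *Hspe1* was below the control at 4 h under 1 of the 5 other scalings. At 20 h *Hspd1* and *Hspe1* turned positive under 1 and 2 of the 5, and at 32 h under 0 and 1. The chaperonin-like proteins mutated in Bardet-Biedl syndrome, which work with CCT in assembling the BBSome, had other values at 4 h, and no test of the difference was possible. *Bbs12* had -1.18 and *Bbs10* -1.07, and both were at least 2-fold lower, as 7.91% of the measured probes were, while *Mkks* had 0.21 and turned negative under 3 of the 5 other scalings. At 20 h and 32 h all 3 were below the control but within the spot error, down to -0.085 for *Bbs12* at 32 h. Of all measured probes 50.5% and 50.9% were below it at these times. Each of the 3 turned positive under 3 or 4 of the 5 other scalings at 20 h and under 2 of them at 32 h.

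Of 12 genes of cytosolic HSP70, HSP90 and their cochaperones, 6 were at least 1.5-fold higher at 4 h and 1 lower (21.6% and 16.5% of all measured probes), with a median of 0.58. Under each of the 5 other scalings 2 of them were 1.5-fold higher, and the median was between 0.18 and 0.45. *Hspa4*, a nucleotide exchange factor of HSP70, was the highest with 1.24, and *Hspa14*, an HSP70-like protein of the ribosome, the lowest with -0.68. At 32 h this list had a median of 0.055, against -0.37 for the CCT subunits, and 8 of its 12 genes were above the control (8 to 11 under the other scalings). Of all measured probes 49.1% were above the control at 32 h, and 47.6% to 72.6% under the other scalings. The 14 genes of the 20S proteasome core, another ring-shaped complex of many subunits, all lay above the control at 4 h with the 75th percentile scaling, with a median of 0.55, but *Psma4*, *Psmb1*, *Psmb5* and *Psmb6* turned negative under 2 to 4 of the 5 other scalings. *Psma5* (of the outer ring) had 1.04 and *Psmb5* (a catalytic subunit) 0.16. At 32 h the median of the proteasome list was 0.028 and 9 of 14 genes were above the control (8 to 14 under the other scalings), beside the same shares of all probes. Of the 8 CCT genes 0 were above it at 32 h under any scaling. These differences were not tested. Of the heat shock factors, which activate chaperone genes, *Hsf1* had 0.54 at 4 h and *Hsf2* 0.057, and *Hsf2* was below the control under 4 of the 5 other scalings.

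The paralogues of CCT subunits known from testis were read on 1 probe each. *Cct8l1* stayed at background on all 4 arrays. *Cct6b*, the testis form of the zeta subunit, had levels of -5.81 in the control, -1.52 at 4 h, -4.73 at 20 h and -5.22 at 32 h, and was not well above background in the control or at 32 h. Against the control, the 4 h array was at least 9.47-fold higher. Against 32 h the bound was 9.26-fold, and for 20 h against the control it was 1.02-fold. Each bound is taken over the dimmest signal that still counted as well above background. The bounds hold for the 75th percentile scaling and were not taken under the 5 other scalings. Those moved the median of all measured probes at 4 h over the control by between -0.40 and -0.12.

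The 5 genes whose profile was most like that of the members were *Susd3*, *Rbm19*, *Pmpca*, *Pwp1* and *E030030I06Rik*. Likeness was the Euclidean distance of the 3 log2 ratios over the control from the median of the members (0.67, -0.25 and -0.37), over the 4 arrays and among 16635 other probes with a gene symbol. The distances of these 5 were between 0.030 and 0.044. That is less than the spot error of 0.20 of a member's ratio, so which genes rank nearest is not resolved. *Susd3* was also dim, with a level of -3.35 in the control. The members themselves lay between 0.029 for *Tcp1* and 0.37 for *Cct3*, and 1303 of the other probes (7.83%) lay within 0.37. Nothing on shared function or control follows from this likeness.

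Promoter sequences of *Cct5*, *Cct6a* and *Cct7* are shown as the 250 bases before the transcript start. The part of promoter sequence in the ratios was not tested. RefSeq promoter windows of 300 bases (GRCm38.p6, 250 before to 50 after the start) matched 7 of the 8 genes with 9 windows, since *Cct2* and *Cct5* have more than 1 start. *Cct4* did not match. 5 motifs were searched on both strands. The heat shock element was written as GAANNTTC and TTCNNGAA, the antioxidant response element as TGACNNNGC, the E-box as CACGTG and the CCAAT box as CCAAT. Capitals mark CCAAT in *Cct6a* and *Cct7* (as ATTGG where it lies on the other strand), TGACNNNGC in *Cct6a* and TTCNNGAA in *Cct5*.
Cct5: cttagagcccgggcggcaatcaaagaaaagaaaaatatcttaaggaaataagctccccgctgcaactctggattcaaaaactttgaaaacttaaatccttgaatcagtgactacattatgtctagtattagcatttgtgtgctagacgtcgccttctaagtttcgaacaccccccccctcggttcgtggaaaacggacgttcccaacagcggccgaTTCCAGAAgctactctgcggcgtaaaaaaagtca
Cct6a: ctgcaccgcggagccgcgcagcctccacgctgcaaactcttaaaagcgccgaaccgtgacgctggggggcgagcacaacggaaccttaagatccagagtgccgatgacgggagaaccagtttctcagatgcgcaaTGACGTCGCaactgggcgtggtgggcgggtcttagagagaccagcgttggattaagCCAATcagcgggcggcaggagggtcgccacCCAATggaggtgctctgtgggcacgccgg
Cct7: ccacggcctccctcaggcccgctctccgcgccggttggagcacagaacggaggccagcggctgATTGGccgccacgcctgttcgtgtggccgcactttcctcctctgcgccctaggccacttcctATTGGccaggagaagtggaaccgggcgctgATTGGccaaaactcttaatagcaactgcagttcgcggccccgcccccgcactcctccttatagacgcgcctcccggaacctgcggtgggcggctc
These windows lie at chr15:31601847-31602096 (-), chr5:129787106-129787355 (+) and chr6:85451255-85451504 (+). GAANNTTC was found in 1 of the 7 genes (*Cct2*) and in 7.86% of all 32851 promoters, TTCNNGAA in *Cct5* and *Cct6a* and in 8.52%, and TGACNNNGC in *Cct2*, *Cct6a* and *Tcp1* and in 12.4%. The CCAAT box was found in 4 genes (*Cct3*, *Cct6a*, *Cct7* and *Tcp1*) and in 37.4% of all promoters. Counted over the 9 windows, as the percentages are, GAANNTTC was in 1, TTCNNGAA in 2, TGACNNNGC in 3 and CCAAT in 4. CACGTG was in none of the 9 windows and in 7.15% of all promoters. A match only describes the letters in the window. The window of *Cct8* held none of the 5 motifs.

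The label of the cells was checked on marker lists. All 8 fibroblast markers were well above background on every array, with a summed level between 567 and 651 times the 75th percentile. The sum is led by very bright genes such as *S100a4*, and single markers moved more. At 4 h 7 of the 8 were below the control, while 60.2% of all measured probes were above it. The median log2 ratio of the 8 was -0.44, and *Pdgfrb* had -1.35. At 20 h 4 of the 8 were at least 1.5-fold lower, as were 5.64% of all measured probes. Of these 4, 3 were at least 2-fold lower, *Thy1* with -1.39, *Col1a1* with -1.06 and *Col3a1* with -1.02. At 32 h all 8 fibroblast markers were below the control, as were 50.9% of all measured probes. Their median was -0.38, beside -0.37 for the CCT subunits. The markers were not examined under the other scalings. *Myod1*, *Myog*, *Ckm* and *Des* of skeletal muscle stayed at background on all 4, and so did 4 of 5 epithelial markers, while *Krt8* was well above background on every array. Of 5 macrophage markers, *Cd68*, *Csf1r* and *Itgam* were well above background on every array, while *Ptprc* and *Emr1* were not on any. Their summed level was 21.9 in the control, 33.4 at 4 h, 12.2 at 20 h and 12.7 at 32 h. This sum moved in the same order as the subunits except between 20 h and 32 h, but single markers did not all follow it. The log2 ratios of the 3 over the control ran from -0.93 to 0.20 at 20 h and from -0.88 to 0.27 at 32 h. At each of these times 1 of the 3 was above the control. Of 4 endothelial markers, 2 or 3 were well above background, with sums from 3.22 to 4.29. The part of these genes, the fibroblast markers included, in the levels of CCT was not tested.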

How the data were processed

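The authors hybridized total RNA to one-color Agilent Mouse GE 4x44K v2 arrays and deposited, per the file headers, spot intensities from Agilent Feature Extraction 10.7.3.1 (spatial and multiplicative detrending and surrogate values for spots at background switched on) and the flags (other values) of each spot. A second deposited table held the same intensity values divided by 1 constant per array, which was checked on 44397 spots.

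The log2 signal was averaged over unflagged spots of a probe (125 to 161 flagged spots per array left out), and the 75th percentile of 39429 probes was subtracted. Ratios were taken where at least 50% of the spots passed the well-above-background mark on each array, and otherwise as bounds. The error is that of the scanner software. SAM, named in the methods, was not run with 1 array per condition. Steps were tested on simulated data.

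The members and gene lists were chosen with earlier results of these data known. Named genes were all members, all measured genes of the small cofactor and chaperonin lists, the highest and lowest at 4 h of each other list, and the 5 nearest profiles. *Tubb2c* and *Hspa1b* had no probe under these names. Alternatives covered 5 other scalings, normexp background correction (offset 50, limma 3.58.1, R 4.3.3), 2 detection rules, flagged spots kept, the deposited table, 1 value per gene and a 3-fold threshold. Calculations used Python 3.11.15, numpy 2.4.6, pandas 2.3.3 and matplotlib.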

Additional observations from a re-analysis of the deposited data

Results flagged for a closer look

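The median log2 ratio of the 8 CCT subunits over the control was 0.67 at 4 h and -0.37 at 32 h after cOS-pulse, with all 8 probes above the control at 4 h and all 8 below it at 32 h. The sides are opposite on the single array of each time, and the difference was not tested, since each time has 1 array and both use the same control. The direction at 32 h held under all 6 scalings, and at 4 h it turned for *Cct7* with the spike-in controls.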

How the results depend on the processing

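At 4 h over the control, the median of the CCT subunits (0.67) moved to 0.31 with the array median, 0.32 with quantile normalization, 0.27 with the spike-in controls and 0.39 without scaling, and the 5 members at least 1.5-fold higher became 0 under each of these and 2 with the 75th percentile of probes detected on all arrays. *Cct7* turned to -0.011 with the spike-in controls. At 20 h the median turned from -0.25 to 0.084 without scaling, as did *Tcp1* (0.097), *Cct4* (0.071), *Cct2* (0.16), *Cct5* (0.19) and *Cct8* (0.20), and the last 3 also turned with the spike-in controls (0.029, 0.058 and 0.065). At 32 h the 1 member at least 1.5-fold lower became 0 with the array median, the spike-in controls or no scaling. From 4 h to 32 h the median (0.91) moved to 0.52, 0.67, 0.36 and 0.45 and the 8 members at least 1.5-fold higher to 2, 5, 1 and 1 with the array median, quantile normalization, the spike-in controls and no scaling. A threshold of 3-fold left 0 members in every comparison. The median of all measured probes at 4 h moved by between -0.40 and -0.12 in the 5 other scalings. By construction, the 4 of them that subtract at most 1 constant per array moved the members by the same amount as all probes. Quantile normalization moved all probes by -0.19 and the median of the members from 0.67 to 0.32, and the cause was not tested. The other background correction, flagged spots and the deposited table changed no median by more than the spot error. The detection rules and 1 value per gene could not change the median of the members. All 8 were detected on all 4 arrays, with 1 probe per gene. No paired analysis was possible because each condition has 1 array. Precision is limited by this number and not by signal over background, since all 8 probes were well above it.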
